A study of Arabidopsis thaliana with 6 samples.

Results

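Of the 6 arrays of the series, the 2 of experiment 3 were set against the 4 of experiments 1 and 2, which had been cultured in other weeks. Experiment 3 was chosen from measured values: in an earlier look at the same intensities HRA1, a gene of the low oxygen response, was far higher in both of its arrays than in the other 4. The difference between experiment 3 and the other experiments is therefore given as a description, and no test of it supports any statement here. The members are the arrays labelled as the third mock experiment, 1 of bzr1-1D seedlings and 1 of det2 seedlings, and each was set against its own genotype's arrays of experiments 1 and 2.

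Both genotypes are Arabidopsis thaliana lines of Columbia-0 background. One, bzr1-1D, carries a dominant mutation that keeps BZR1, a transcription factor of brassinosteroid signalling, active, and the other, det2, lacks a steroid reductase needed to make brassinosteroids. All 6 arrays share the rest of the treatment: seedlings shaken gently for 5 days in liquid Murashige and Skoog medium with 1.5% sucrose, in constant light at 22 °C, and then given ethanol alone for 3 hours as a mock treatment. Each array holds RNA of whole seedlings pooled from a flask, so 1 week stands against 2 weeks, and arrays of 1 week share the culture and its handling. The week, the culture and the handling of the arrays cannot be told apart. In pooled whole seedlings, fewer cells of a type and less RNA per cell cannot be told apart either.

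Plant cells short of oxygen stabilise transcription factors of the ethylene response factor group VII, which switch on genes of fermentation, sucrose breakdown and the restraint of the response itself. Pyruvate decarboxylase and alcohol dehydrogenase then regenerate the electron acceptor that glycolysis needs when respiration stalls. Cells short of sugar or light switch on another set, which includes enzymes that break down branched-chain amino acids for energy.

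The deposited values are probe set intensities in arbitrary units, and a difference below is one of log2 of the intensity plus 50, experiment 3 minus experiments 1 and 2, with the genotype as a block. Its standard error (SE) comes from the limma fit over the 6 arrays, which treats the arrays as independent. The median intensity of an array ranged from 212.8 to 221. The bzr1-1D array of experiment 2 stood somewhat apart, with the lowest mean rank correlation with the other arrays, 0.938. The det2 array of experiment 2 correlated best with the det2 array of experiment 3, at 0.971 across probe sets, against 0.947 with the det2 array of experiment 1. One pair of GAPDH probe sets gave a 3′ to 5′ ratio of 0.496 for bzr1-1D and 0.474 for det2 in experiment 3, against 0.757 and 0.800 in experiment 1 and 0.463 and 0.461 in experiment 2, so that experiment 1 stood apart in it. A second GAPDH pair gave 1.01 and 0.99 in experiment 3 and 1.02 to 1.16 in the others, and the part of RNA quality in the results was not tested. BZR1 and DET2 were not analysed here, and the genotype labels were taken as given.

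Of the 15 leading genes that stood above the other weeks in experiment 3, 12 belonged to the low oxygen list. That list held 20 of the 13356 genes named by the annotation. Experiment 3 was chosen for HRA1 of this list, and the list included genes chosen with these values known. The 12 of 15 is therefore a description and not evidence. Among 22746 probe sets, 4 had an adjusted p under 0.05 in the limma fit with Benjamini-Hochberg adjustment, all of them higher in experiment 3. That was 0.0176% of those tested, and 0% were called lower. Those 4 calls only list genes, since the experiment was chosen on these values, and with any 1 of the 6 arrays left out 0 passed. At an unadjusted p under 0.05 the fit held 785 higher and 598 lower probe sets, and these counts, too, only describe the arrays. Experiment 3 lay above both other experiments in each genotype at 3260 probe sets, or 14.3%, and below both in each genotype at 2784, or 12.2%. These 2 shares are the background for the lists below, where a count above or below always means past both other experiments in each genotype. With a log2 difference of at least 1 as well, 193 probe sets were above, or 0.849%, and with -1 or less 162 were below, or 0.712%. The median difference over all probe sets was 0.00902. Per the labels the intensities had been set to a target intensity of 500, which brings arrays to a like level. This value is therefore no separate sign that the samples were level.

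**Figure D1:**
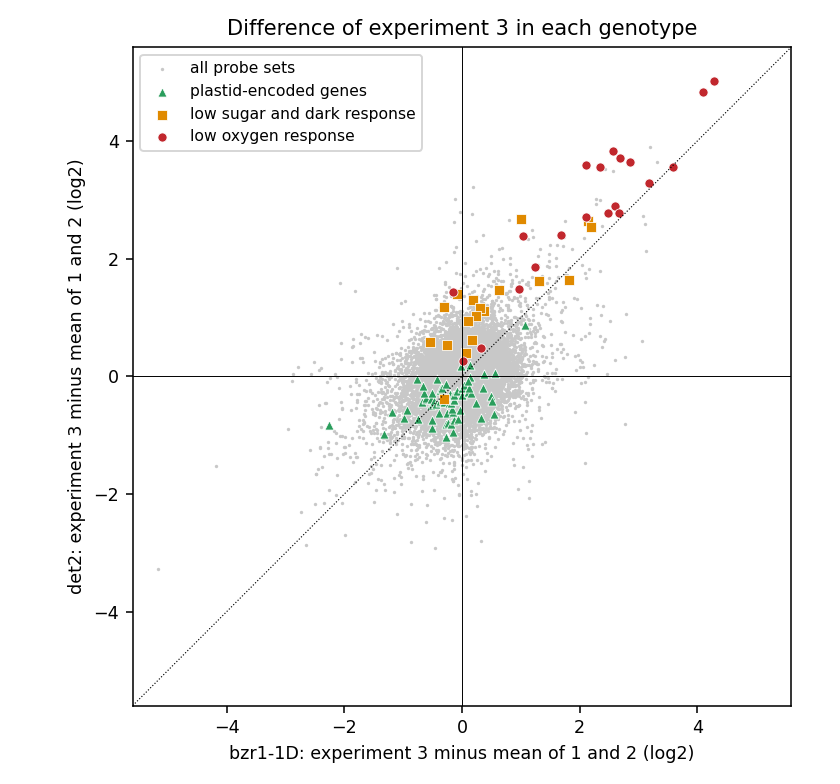
Each point is a probe set: the horizontal axis gives experiment 3 minus the mean of experiments 1 and 2 in bzr1-1D, the vertical axis the same in det2, both in log2 units, and the dotted line marks equal differences. The low oxygen genes (red circles) reach 4.28 in bzr1-1D and 5.03 in det2, the low sugar and dark genes (orange squares) lie mostly above the dotted line, and most plastid-encoded genes (green triangles) lie below 0 on both axes.

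The low oxygen list held 45 genes, of which 20 had a probe set named by the annotation used. Of the 20, 18 were above and 0 below, against the 14.3% and 12.2% of all probe sets, and the median difference was 2.73. The same median was 2.42 in bzr1-1D and 2.84 in det2. The list included genes chosen with these values known, so its count describes it and is not independent evidence.

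HRA1 (AT3G10040), HYPOXIA RESPONSE ATTENUATOR1, encodes a transcription factor that restrains the low oxygen response it belongs to. In intensity it stood at 2900.2 in the bzr1-1D array and 3534 in the det2 array of experiment 3. The arrays of experiments 1 and 2 had 93.8 and 111 for bzr1-1D, 44.7 and 77.3 for det2. Both arrays of experiment 3 were high and all 4 others were low, with no overlap. That made a difference of 4.65 ± 0.24 (SE), namely 4.28 for bzr1-1D and 5.03 for det2. AT1G33055 carries no name in the tables used and is a member of the same list. It had an intensity of 6019.9 in the bzr1-1D array and 8554 in the det2 array of experiment 3. Against this stood, in experiments 1 and 2, 333 and 280.5 for bzr1-1D, 240.2 and 262 for det2. Again the 2 arrays of experiment 3 stood far above the others, and the other 4 lay close together. Its difference was 4.47 ± 0.21 (SE), namely 4.09 for bzr1-1D and 4.84 for det2. AT5G42200 was the third member of the list among the 4 genes called. The gene measured 2026 in the bzr1-1D array and 2234 in the det2 array of experiment 3. Experiments 1 and 2 gave 289.7 and 265 for bzr1-1D, 318 and 252 for det2. Its arrays lay close together within each set, and its SE was the smallest of the 4 called. This gave a difference of 2.72 ± 0.15 (SE), namely 2.67 for bzr1-1D and 2.78 for det2.

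**Figure D2:**
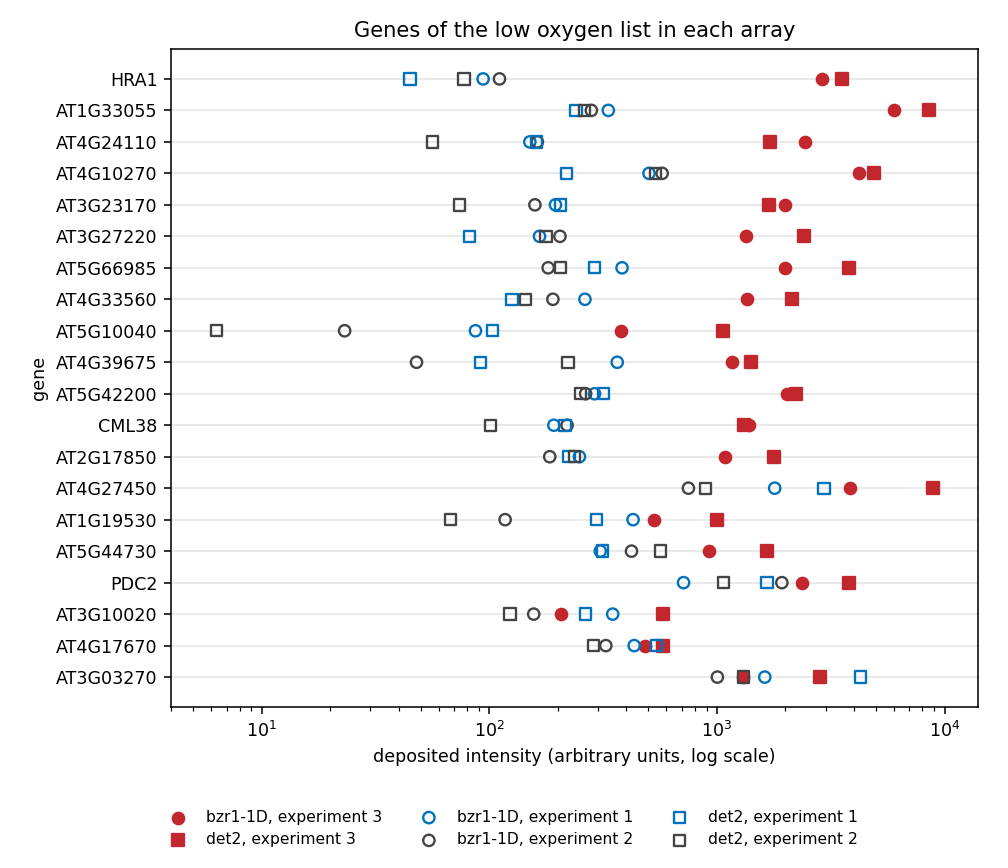
Intensity of the 20 measured genes of the low oxygen list on a log axis, 1 row per gene from the largest difference at the top, with circles for bzr1-1D and squares for det2. Filled red symbols (experiment 3) lie to the right of all open symbols (experiments 1 and 2) from HRA1 at 2900.2 and 3534 down to PDC2 at 2359 and 3813, and among them at the bottom of the plot for AT3G10020, AT4G17670 and AT3G03270.

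CML38 encodes a calmodulin-like calcium sensor that is known to associate with RNA granules during hypoxia. Its intensity was 1379 in the bzr1-1D array and 1320.5 in the det2 array of experiment 3. In experiments 1 and 2 it was 192 and 219 for bzr1-1D, 215 and 101 for det2. The 2 genotypes were close to each other in experiment 3, and the det2 array of experiment 2 was the lowest of the other 4. The log2 difference was 2.63 ± 0.26 (SE), namely 2.48 for bzr1-1D and 2.78 for det2. PDC2 encodes pyruvate decarboxylase, the first enzyme of ethanol fermentation. In intensity it stood at 2359 in the bzr1-1D array and 3813 in the det2 array of experiment 3. The arrays of experiments 1 and 2 had 713 and 1928 for bzr1-1D, 1661 and 1068 for det2. Experiment 3 was above in both genotypes, but the others were spread widely, with bzr1-1D of experiment 2 near bzr1-1D of experiment 3. That made a difference of 1.23 ± 0.42 (SE), namely 0.97 for bzr1-1D and 1.48 for det2. The genes most often used to mark fermentation and oxygen sensing, ADH1, PDC1, SUS1, HB1, LBD41, PCO1 and PCO2, were on the list and not analysed here.

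The other members with large differences carry no names in the tables used. AT4G24110 had 2427 in the bzr1-1D array and 1717 in the det2 array of experiment 3, against 150.5 and 162 for bzr1-1D, 161 and 56.2 for det2 in experiments 1 and 2. AT4G10270 had 4196 in the bzr1-1D array and 4918 in the det2 array of experiment 3, against 503 and 574 for bzr1-1D, 219 and 538 for det2 in experiments 1 and 2. AT3G23170 had 1988 in the bzr1-1D array and 1692 in the det2 array of experiment 3, against 195 and 158 for bzr1-1D, 205 and 73.9 for det2 in experiments 1 and 2. In all 3 the arrays of experiment 3 were several-fold above the highest of the others. Their differences were 3.57 ± 0.29 (SE) for AT4G24110, 3.25 ± 0.36 (SE) for AT4G10270 and 3.23 ± 0.31 (SE) for AT3G23170. AT3G27220 had 1346 in the bzr1-1D array and 2418 in the det2 array of experiment 3, against 166 and 204 for bzr1-1D, 81.5 and 178 for det2 in experiments 1 and 2. AT5G66985 had 1987 in the bzr1-1D array and 3794 in the det2 array of experiment 3, against 383 and 181 for bzr1-1D, 289 and 206 for det2 in experiments 1 and 2. For both genes det2 was the higher genotype in experiment 3, though neither passed the test of a difference between genotypes given further on. AT4G33560 had 1351 in the bzr1-1D array and 2126 in the det2 array of experiment 3, against 263 and 190.1 for bzr1-1D, 126 and 144 for det2 in experiments 1 and 2. AT2G17850 had 1089 in the bzr1-1D array and 1786 in the det2 array of experiment 3, against 249 and 184 for bzr1-1D, 224 and 236 for det2 in experiments 1 and 2. For these, too, the sets of arrays did not overlap.

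A few members were uneven across experiments 1 and 2. AT5G10040 had 379.6 in the bzr1-1D array and 1065 in the det2 array of experiment 3, against 86.8 and 23.1 for bzr1-1D, 103 and 6.3 for det2 in experiments 1 and 2, so that both arrays of experiment 2 were nearly dark. AT4G39675 had 1169.9 in the bzr1-1D array and 1409 in the det2 array of experiment 3, against 364 and 47.8 for bzr1-1D, 91.4 and 222 for det2 in experiments 1 and 2. Its lowest array was bzr1-1D of experiment 2. AT4G27450 had 3855 in the bzr1-1D array and 8862 in the det2 array of experiment 3, against 1793 and 749 for bzr1-1D, 2958 and 888 for det2 in experiments 1 and 2. AT1G19530 had 529.9 in the bzr1-1D array and 997 in the det2 array of experiment 3, against 428 and 117 for bzr1-1D, 295 and 67.4 for det2 in experiments 1 and 2. AT4G27450 and AT1G19530 were both higher in experiment 1 than in experiment 2 in each genotype, and experiment 3 was above both. AT5G44730 had 924 in the bzr1-1D array and 1665 in the det2 array of experiment 3, against 307 and 421 for bzr1-1D, 314 and 566 for det2 in experiments 1 and 2, a difference of 1.55 ± 0.29 (SE).

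The lowest 3 members of the list barely separated the experiments, or not at all. AT3G10020 had 207 in the bzr1-1D array and 582 in the det2 array of experiment 3, against 348 and 156 for bzr1-1D, 264 and 123 for det2 in experiments 1 and 2. AT4G17670 had 482 in the bzr1-1D array and 578 in the det2 array of experiment 3, against 433 and 325 for bzr1-1D, 544 and 287 for det2 in experiments 1 and 2. AT3G03270 had 1297 in the bzr1-1D array and 2848 in the det2 array of experiment 3, against 1622 and 1004 for bzr1-1D, 4266 and 1310.3 for det2 in experiments 1 and 2, with its highest value in det2 of experiment 1. Of these 3 only AT4G17670 counted as above, and by little, with a difference of 0.41 ± 0.27 (SE).

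The other 3 of the 15 leading genes lie outside the low oxygen list. AT5G26200 was the fourth gene called. It had an intensity of 1092 in the bzr1-1D array and 1691 in the det2 array of experiment 3. Against this stood, in experiments 1 and 2, 78.4 and 71.9 for bzr1-1D, 57.5 and 77.3 for det2. Its arrays of experiments 1 and 2 were all dim and close to each other. Its difference was 3.54 ± 0.21 (SE), namely 3.19 for bzr1-1D and 3.90 for det2. AT1G03610 had 2656 in the bzr1-1D array and 4449.8 in the det2 array of experiment 3, against 394 and 580.2 for bzr1-1D, 495 and 534 for det2 in experiments 1 and 2. AT3G12150 had 885 in the bzr1-1D array and 1245 in the det2 array of experiment 3, against 101 and 161 for bzr1-1D, 157 and 184 for det2 in experiments 1 and 2. Both were several-fold higher in experiment 3, with differences of 2.68 ± 0.23 (SE) for AT1G03610 and 2.47 ± 0.19 (SE) for AT3G12150, and no list used here holds them. WRKY22 encodes a transcription factor of immune signalling that is also known from submergence. The gene measured 926 in the bzr1-1D array and 482 in the det2 array of experiment 3. Experiments 1 and 2 gave 213 and 289 for bzr1-1D, 184 and 159 for det2. This gave a difference of 1.49 ± 0.19 (SE), namely 1.71 for bzr1-1D and 1.27 for det2. It was the 1 WRKY factor above of the 6 measured, 16.7% against 14.3% of all probe sets, and 1 was below. The other 5 had negative differences, and the median of the 6 was -0.42.

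Genes that respond to low sugar and darkness included many that lay above the other weeks, though none of them passed an adjusted p of 0.05. Of 18 measured genes of a list of 45, added after the leading genes had been seen, 10 were above, 55.6% against 14.3% of all probe sets, and 0 below, with a median difference of 0.70 against 0.00902 over all probe sets. The median was 0.22 in bzr1-1D and 1.17 in det2, and the signed difference was higher in det2 for 16 of the 18, against 52.4% of all probe sets. No member passed the test of a difference between the genotypes, so the values by genotype only describe the arrays. As the list was added with the leading genes known, its count describes it and is not independent evidence.

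AT1G23390 led this list. Its intensity was 1067 in the bzr1-1D array and 2910.1 in the det2 array of experiment 3. In experiments 1 and 2 it was 154 and 266 for bzr1-1D, 315 and 573 for det2. Both arrays of experiment 3 were above every other array, and the difference was 2.39 ± 0.31 (SE). AT5G19120 had 3688 in the bzr1-1D array and 5201 in the det2 array of experiment 3, against 834 and 711 for bzr1-1D, 1104 and 649 for det2 in experiments 1 and 2, a difference of 2.37 ± 0.25 (SE). AT3G26510 had 2377 in the bzr1-1D array and 2622 in the det2 array of experiment 3, against 935 and 922 for bzr1-1D, 858 and 778 for det2 in experiments 1 and 2. Both lay well above the others in each genotype. AT2G20670 had 1713 in the bzr1-1D array and 1393 in the det2 array of experiment 3, against 708 and 281 for bzr1-1D, 619.8 and 274 for det2 in experiments 1 and 2. In these 4 genes both genotypes were clearly higher in experiment 3. AT3G15450 had 2199 in the bzr1-1D array and 6368 in the det2 array of experiment 3, against 1044 and 1087 for bzr1-1D, 1021 and 897 for det2 in experiments 1 and 2, so that the difference was 1.01 in bzr1-1D and 2.67 in det2.

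The leucine breakdown enzymes of the list, AKINBETA1 and ETFQO were each highest in the det2 array of experiment 3. MCCA and MCCB encode the subunits of methylcrotonyl-CoA carboxylase and IVD encodes isovaleryl-CoA dehydrogenase, enzymes of leucine breakdown. MCCA had 184 in the bzr1-1D array and 627 in the det2 array of experiment 3, against 244 and 159 for bzr1-1D, 185 and 230.0 for det2 in experiments 1 and 2. MCCB had 1012 in the bzr1-1D array and 1739.5 in the det2 array of experiment 3, against 566 and 1152 for bzr1-1D, 484 and 1134 for det2 in experiments 1 and 2. IVD had 319.5 in the bzr1-1D array and 582 in the det2 array of experiment 3, against 262 and 264 for bzr1-1D, 249.5 and 275 for det2 in experiments 1 and 2. The bzr1-1D array of experiment 3 lay among the others for MCCA and MCCB and slightly above them for IVD. AKINBETA1, a regulatory subunit of the SnRK1 energy-sensing kinase, had 459.5 in the bzr1-1D array and 914 in the det2 array of experiment 3, against 334 and 353 for bzr1-1D, 394 and 404 for det2 in experiments 1 and 2, a difference of 0.74 ± 0.20 (SE). ETFQO, which passes electrons from that breakdown to the respiratory chain, had 264 in the bzr1-1D array and 512 in the det2 array of experiment 3, against 398 and 416 for bzr1-1D, 289 and 362 for det2 in experiments 1 and 2. A shorter list of sugar responses, with 6 measured genes of which 5 are shared with the list above, had 2 above and 1 below. These were 33.3% and 16.7%, against 14.3% and 12.2% of all probe sets, and the median difference was 0.64. The 1 below was APL3, which is in the shorter list alone and encodes a subunit of the starch synthesis enzyme ADP-glucose pyrophosphorylase, induced by sugar. APL3 had 358 in the bzr1-1D array and 158 in the det2 array of experiment 3, against 847 and 480.4 for bzr1-1D, 694 and 317 for det2 in experiments 1 and 2, a difference of -1.04 ± 0.37 (SE). Unlike the enzymes above it was lowest in the det2 array of experiment 3.

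**Figure D3:**
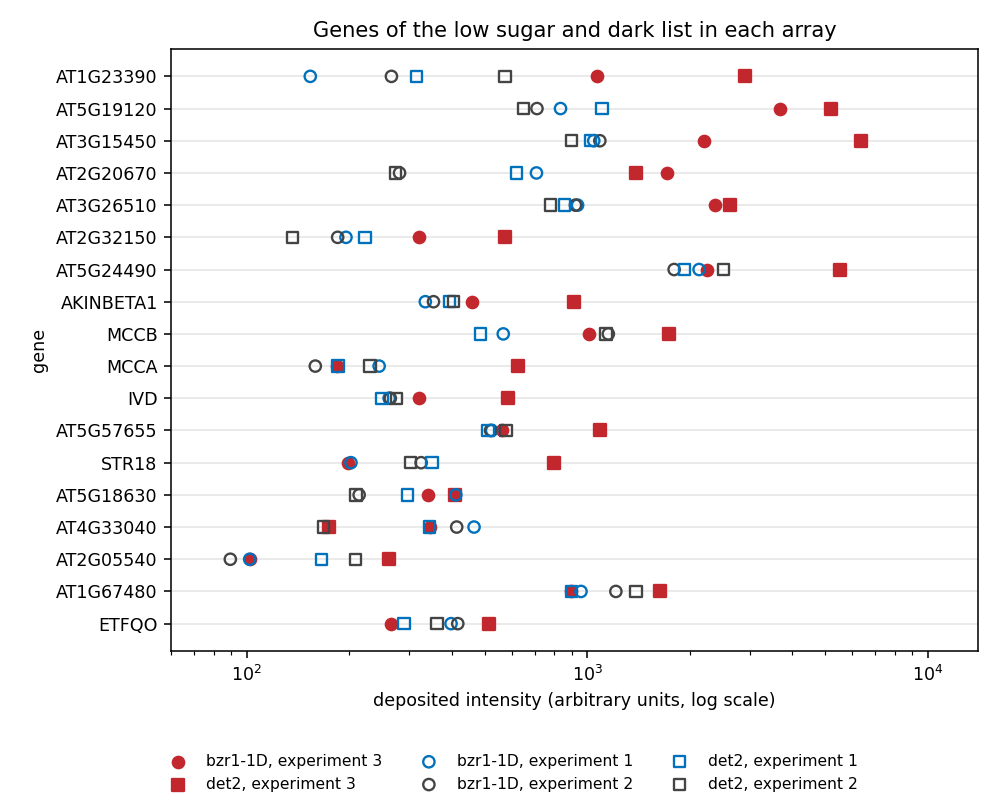
Intensity of the 18 measured genes of the low sugar and dark list on a log axis, 1 row per gene, with circles for bzr1-1D and squares for det2, filled red for experiment 3 and open for experiments 1 and 2. In the top rows both filled symbols lie to the right, as for AT5G19120 at 3688 and 5201, while for MCCA the det2 square of experiment 3 at 627 stands alone.

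Genes of root hairs and their cell wall proteins were mostly neither above nor below, and none passed an adjusted p of 0.05. Of 10 measured genes of a list of 39, added after the leading genes had been seen, 2 were above, 20% against 14.3% of all probe sets, and 0 below, with a median difference of 0.94. The bzr1-1D median was 1.54 and the det2 median 0.29. AT3G49960, which also belongs to the class III peroxidase family, had 278 in the bzr1-1D array and 277 in the det2 array of experiment 3, against 32.1 and 4.3 for bzr1-1D, 20.6 and 230.1 for det2 in experiments 1 and 2. AT3G28550 had 381 in the bzr1-1D array and 219 in the det2 array of experiment 3, against 62.4 and 24.0 for bzr1-1D, 165 and 205 for det2 in experiments 1 and 2. AT4G26010 had 1428 in the bzr1-1D array and 852 in the det2 array of experiment 3, against 373 and 139 for bzr1-1D, 298 and 1131 for det2 in experiments 1 and 2. In AT3G49960 and AT4G26010 the high arrays were both of experiment 3 and det2 of experiment 2, and in all 3 genes bzr1-1D of experiment 2 was the lowest of the 6. HRGP1, a hydroxyproline-rich wall glycoprotein, had 2831 in the bzr1-1D array and 3145 in the det2 array of experiment 3, against 1545 and 1052 for bzr1-1D, 1637 and 3949 for det2 in experiments 1 and 2. The root hair expansins EXPA7 and EXPA18, whose products loosen walls at the hair tip, differed by 0.16 ± 0.36 (SE) and 0.12 ± 0.28 (SE), each less than its SE. Of 55 class III peroxidases 10 were above and 4 below, near the 14.3% and 12.2% of all probe sets, with a median difference of 0.02.

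No gene lower in experiment 3 was called, and its 15 leading lower genes are given as values only. They had the largest differences among named genes with an unadjusted p under 0.01 in the limma fit, not among all lower probe sets. Among all probe sets 11 were below by a log2 difference of -2 or less. AT3G60420 had 22.9 in the bzr1-1D array and 25.3 in the det2 array of experiment 3, against 311 and 370.2 for bzr1-1D, 193 and 77.1 for det2 in experiments 1 and 2, a difference of -1.82 ± 0.38 (SE). AT1G43910 had 636 in the bzr1-1D array and 264 in the det2 array of experiment 3, against 1843 and 1912 for bzr1-1D, 2074 and 845 for det2 in experiments 1 and 2, a difference of -1.81 ± 0.37 (SE). AT1G29670 had 1957 in the bzr1-1D array and 1516 in the det2 array of experiment 3, against 6634 and 5065 for bzr1-1D, 6837 and 3419 for det2 in experiments 1 and 2, a difference of -1.59 ± 0.30 (SE). In each of them both arrays of experiment 3 were below all the others, and det2 of experiment 2 was the nearest. AT5G53420 had 884 in the bzr1-1D array and 389 in the det2 array of experiment 3, against 2595 and 2013 for bzr1-1D, 2337 and 965 for det2 in experiments 1 and 2, a difference of -1.57 ± 0.37 (SE). AT2G41090 had 2667 in the bzr1-1D array and 1335 in the det2 array of experiment 3, against 5098 and 7849 for bzr1-1D, 4993 and 2994 for det2 in experiments 1 and 2, a difference of -1.37 ± 0.28 (SE). AT3G25400 had 19.8 in the bzr1-1D array and 20.8 in the det2 array of experiment 3, against 142 and 119.9 for bzr1-1D, 109 and 73.9 for det2 in experiments 1 and 2, so that it was nearly dark in experiment 3. The remaining 9 of the 15 were AT2G39710, AT1G33600, AT4G30650, AT3G44430, AT1G13750, AT1G33110, AT5G52450, AT2G23910 and AT3G47330, with differences between -1.58 for AT2G39710 and -1.05 for AT3G47330. None of the 15 belonged to a list used here. Some list members outside the 15 were also below, such as UGT87A2 at -1.75 ± 0.57 (SE) and GSTU25 at -1.65 ± 0.76 (SE).

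**Figure D4:**
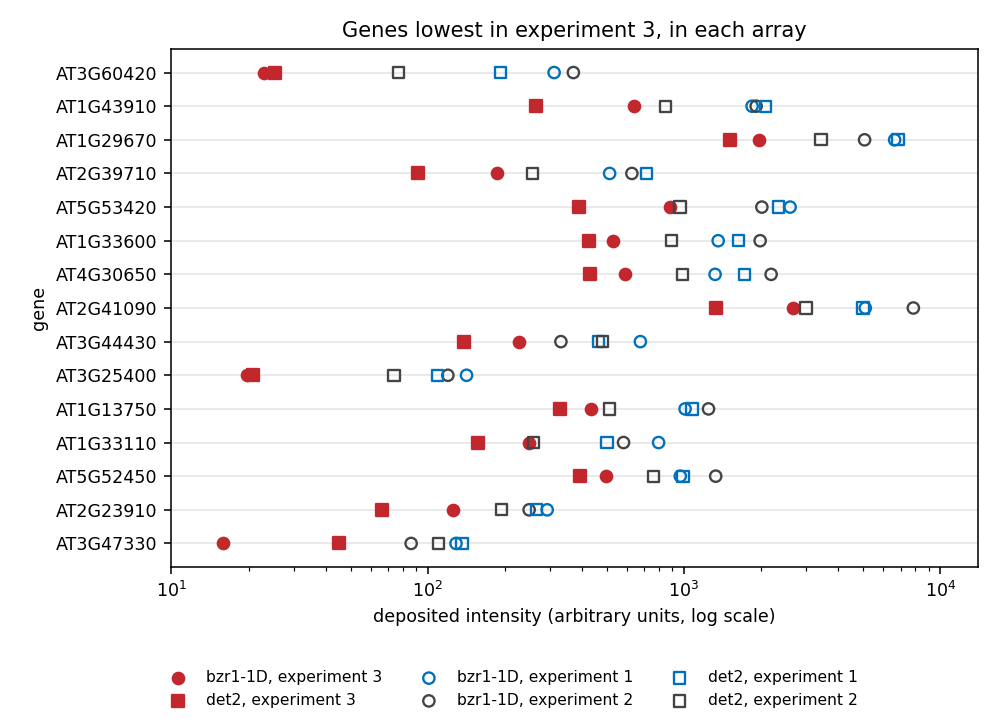
Intensity of the 15 leading lower genes on a log axis, 1 row per gene, with circles for bzr1-1D and squares for det2, filled red for experiment 3 and open for experiments 1 and 2. Both filled symbols lie to the left in every row, and the nearest open symbol is the det2 square of experiment 2 in 13 of the 15.

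On the lower side of experiment 3, the same array of another week was most often the nearest. Among the 162 probe sets below by a log2 difference of -1 or less, the det2 array of experiment 2 was the lowest of the 4 in 123. How often it was the lowest or highest of the 4 over all probe sets was not counted, so these counts have no background share. Across all probe sets it also correlated at 0.971 with det2 of experiment 3. Over these 162 the median of det2 in experiment 3 was -1.69 relative to det2 in experiment 1, and -0.51 relative to det2 in experiment 2. In bzr1-1D it was -1.17 relative to experiment 1 and -1.56 relative to experiment 2. Among the 193 probe sets above by at least 1, the highest of the 4 was the det2 array of experiment 2 in 76, bzr1-1D of experiment 2 in 49, and bzr1-1D and det2 of experiment 1 in 34 each. Their medians were 1.64 in det2 relative to experiment 1 and 1.57 relative to experiment 2, and in bzr1-1D 1.23 and 1.43.

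Transcripts of the plastid genome were low in experiment 3 relative to experiment 1. Of 69 measured plastid-encoded genes, 29 were below, 42.0% against 12.2% of all probe sets, and 1 was above, with a median difference of -0.34. psaC, which encodes an iron-sulfur subunit of photosystem I, had 803 in the bzr1-1D array and 941 in the det2 array of experiment 3, against 2892 and 1515 for bzr1-1D, 2989 and 1200.4 for det2 in experiments 1 and 2. ndhD, which encodes a subunit of the plastid NADH dehydrogenase-like complex, had 3118 in the bzr1-1D array and 3529.7 in the det2 array of experiment 3, against 7266 and 5379 for bzr1-1D, 6939 and 4843 for det2 in experiments 1 and 2. In both genes experiment 1 was the highest, experiment 2 lay between, and experiment 3 was the lowest. rbcL, the large subunit of Rubisco, had 150.1 in the bzr1-1D array and 264 in the det2 array of experiment 3, against 2896 and 259 for bzr1-1D, 853 and 290.5 for det2 in experiments 1 and 2, so that the low level was common to experiments 3 and 2. psbA, the D1 protein of photosystem II, had 462 in the bzr1-1D array and 857 in the det2 array of experiment 3, against 2130.5 and 288 for bzr1-1D, 2402 and 861 for det2 in experiments 1 and 2 and was lowest in bzr1-1D of experiment 2. rpl36, of the plastid ribosome, was the 1 member above, with 2483 in the bzr1-1D array and 3186 in the det2 array of experiment 3, against 1027 and 1298 for bzr1-1D, 1271.5 and 2310.2 for det2 in experiments 1 and 2. In a comparison added after the data were seen, 53 of the 69 were lower than in experiment 1 in each genotype, where 29.9% of all probe sets were, and 35 were lower than in experiment 2, where 24.4% of all probe sets were. The first GAPDH 3′ to 5′ ratio given above was also highest in experiment 1, and its part in these values was not tested.

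Photosynthesis genes of the nucleus differed little. LHCB4.1, a light-harvesting protein of photosystem II, had 11144 in the bzr1-1D array and 11675 in the det2 array of experiment 3, against 15559 and 12804 for bzr1-1D, 15368 and 12448 for det2 in experiments 1 and 2, a difference of -0.29 ± 0.17 (SE). RCA, Rubisco activase, had 9277 in the bzr1-1D array and 12133 in the det2 array of experiment 3, against 13718 and 9699.9 for bzr1-1D, 13138 and 12874 for det2 in experiments 1 and 2, a difference of -0.21 ± 0.19 (SE). These 2 of the 5 measured genes were below, 40% against 12.2% of all probe sets, and 0 were above, against 14.3%. The median difference of the 5 was -0.03.

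The lists of detoxification and oxidative stress did not share 1 pattern, and none of their genes passed an adjusted p of 0.05. Of 48 UDP-glycosyltransferases, enzymes that attach sugars to small molecules, 11 were below and 0 above, 22.9% against 12.2%, with a median difference of -0.14. Against 1 week at a time, 26 of the 48 were lower than in experiment 1 in each genotype and 19 were lower than in experiment 2, beside the 29.9% and 24.4% of all probe sets. UGT87A2 had 293 in the bzr1-1D array and 300.3 in the det2 array of experiment 3, against 1787 and 1451 for bzr1-1D, 1550.3 and 366 for det2 in experiments 1 and 2. Of 14 glutathione transferases 3 were above and 3 below, 21.4% each against 14.3% and 12.2% of all probe sets. The median difference of the 14 was 0.04. Of these enzymes GSTU25 had 120.4 in the bzr1-1D array and 136 in the det2 array of experiment 3, against 260.0 and 1172 for bzr1-1D, 997 and 197 for det2 in experiments 1 and 2. Experiment 3 was the lowest in both enzymes, with det2 of experiment 2 close to it. Of 5 measured genes of oxidative and mitochondrial stress, among them GSTU25, 2 were below and 0 above, 40% and 0% against 12.2% and 14.3%. Their median difference of -1.16 turned to 0.26 without experiment 1. NDB2, an external NAD(P)H dehydrogenase of mitochondria, had 519.9 in the bzr1-1D array and 318 in the det2 array of experiment 3, against 768 and 1545 for bzr1-1D, 1107 and 678 for det2 in experiments 1 and 2, a difference of -1.16 ± 0.34 (SE). GSTU25 and NDB2 were the 2 below. BZIP60, a transcription factor of the unfolded protein response, had 804 in the bzr1-1D array and 821 in the det2 array of experiment 3, against 1838 and 2069 for bzr1-1D, 3272 and 939 for det2 in experiments 1 and 2, a difference of -1.14 ± 0.47 (SE). Here too det2 of experiment 2 lay close to experiment 3. STZ, a zinc finger repressor of abiotic stress, differed by 0.09 ± 0.51 (SE). Of 22 berberine bridge enzymes, oxidases of which several are known from defence, 4 were below and 3 above. AT1G30700 of that family had 121 in the bzr1-1D array and 74.2 in the det2 array of experiment 3, against 209 and 1850.3 for bzr1-1D, 287 and 135 for det2 in experiments 1 and 2. The value of bzr1-1D in experiment 2 towered over the rest of them.

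Growth-related genes mostly showed small differences. Of 14 expansins 1 was below and 0 above, with a median difference of -0.08. Of 9 xyloglucan endotransglucosylases, which remodel the wall, 2 were below and 1 above. The shares were 7.14% below for expansins, and 22.2% below and 11.1% above for the xyloglucan enzymes, against 12.2% and 14.3% of all probe sets. XTH32 had 1166 in the bzr1-1D array and 717 in the det2 array of experiment 3, against 2662 and 1314 for bzr1-1D, 3362 and 1776 for det2 in experiments 1 and 2, a difference of -1.18 ± 0.43 (SE). It was highest in experiment 1 in both genotypes. Of 7 tubulins 2 were below, with TUB9, a beta-tubulin, at -0.26 ± 0.14 (SE). Of 8 core histone genes 2 were below, with HTB2 at -0.60 ± 0.24 (SE). These were 28.6% and 25% below, against 12.2% of all probe sets, and 0 were above in either list, against 14.3%. AUR1 and AUR2, Aurora kinases of dividing cells, differed by 0.32 ± 0.19 (SE) and 0.27 ± 0.16 (SE). PRL, the third measured gene of the cell division list, went the other way, at -0.11 ± 0.20 (SE). Of these 3 genes 1 was above and 0 below, 33.3% and 0% against 14.3% and 12.2% of all probe sets. Of 131 cytosolic ribosomal protein genes 17 were above and 6 below, near or under the background shares, with a median difference of 0.26 in bzr1-1D and -0.07 in det2. The gibberellin receptors went apart, with GID1A at 0.46 ± 0.14 (SE) and GID1B at -0.57 ± 0.30 (SE). The brassinosteroid receptor homologue BRL1 differed by -0.27 ± 0.16 (SE) at low intensity. GI, of the circadian clock, had 519.9 in the bzr1-1D array and 652 in the det2 array of experiment 3, against 195 and 343 for bzr1-1D, 338 and 150.2 for det2 in experiments 1 and 2, a difference of 1.10 ± 0.34 (SE).

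The other stress lists were short. Of 5 measured heat shock genes 0 were above and 0 below, and 4 of the 5 were highest in experiment 1. ROF2, a heat-induced immunophilin, had 226 in the bzr1-1D array and 267 in the det2 array of experiment 3, against 855 and 75.5 for bzr1-1D, 612 and 133 for det2 in experiments 1 and 2. Experiment 3 lay between the other weeks, of which experiment 1 was the higher. One GAPDH pair had its highest 3′ to 5′ ratio in experiment 1 and the other pair did not. The part of RNA quality in these values was not tested. Of 4 measured genes of cold, drought and abscisic acid, 2 were below and 0 above, against 12.2% and 14.3% of all probe sets, with a median difference of -0.30. LTI30, a dehydrin of cold and drought, had 297 in the bzr1-1D array and 394 in the det2 array of experiment 3, against 1032 and 1979 for bzr1-1D, 904 and 512 for det2 in experiments 1 and 2, and was below in both genotypes with a difference of -1.41 ± 0.44 (SE). COR47, another dehydrin and the other member below, differed by -0.32 ± 0.15 (SE). Of 3 flavonoid genes 0 were above or below. DFR, dihydroflavonol reductase of anthocyanin synthesis, had 737 in the bzr1-1D array and 266 in the det2 array of experiment 3, against 1628 and 299 for bzr1-1D, 632 and 539.6 for det2 in experiments 1 and 2, so that it was low in det2 and not in bzr1-1D.

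**Figure D5:**
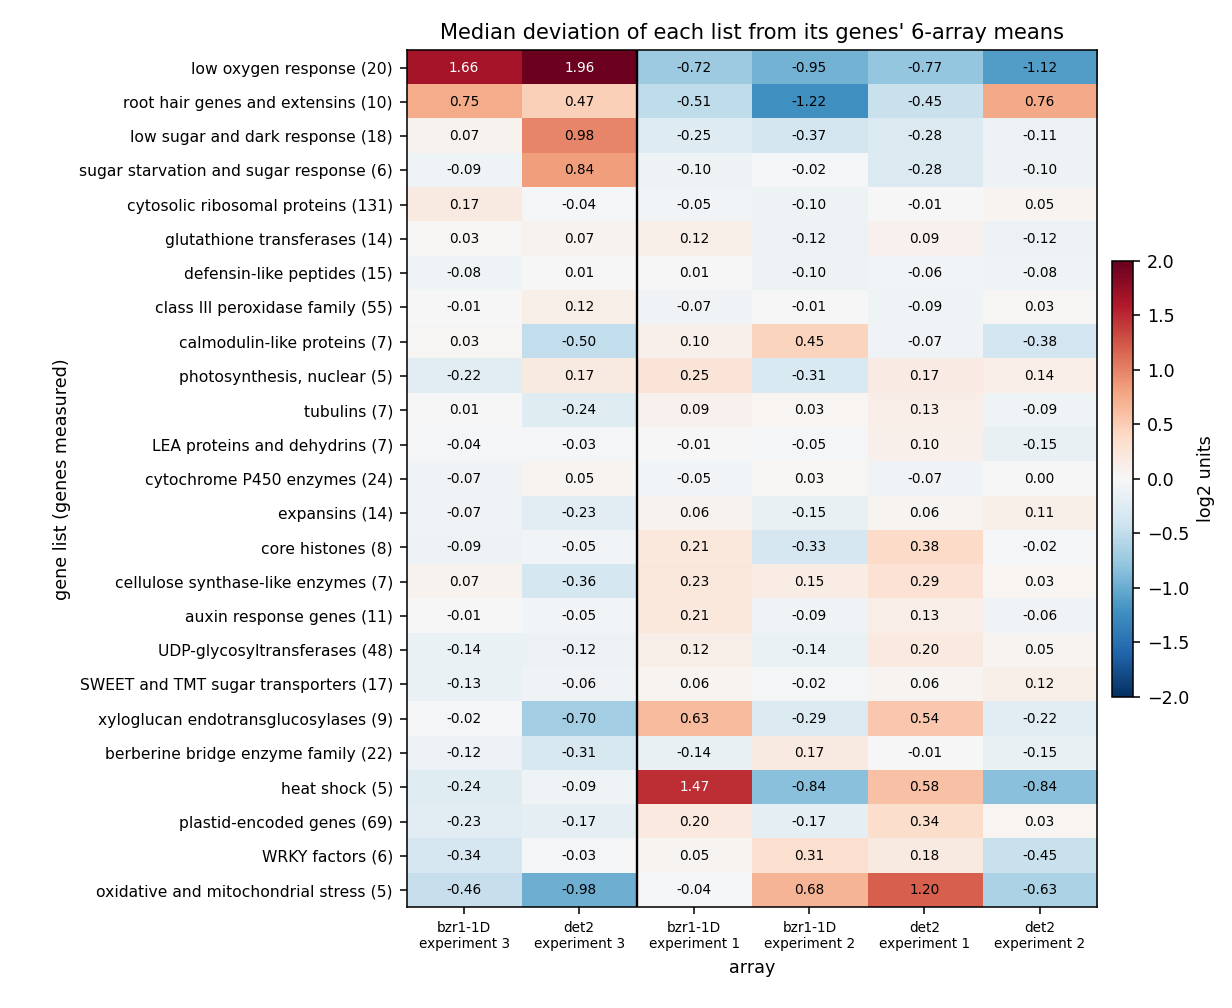
Each cell gives the median, over the genes of a list, of an array's log2 value minus the gene's mean over the 6 arrays, with the number of genes in brackets and experiment 3 in the 2 columns left of the black line. The low oxygen row stands at 1.66 and 1.96 in experiment 3 and between -0.72 and -1.12 in the others, while the low sugar and dark row stands at 0.07 in bzr1-1D and 0.98 in det2 of experiment 3, each above its genotype's other arrays.

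Whether experiment 3 differed more in 1 genotype was fitted for all probe sets. The choice of experiment 3 rested on HRA1 being high in both genotypes, so the values of HRA1 and of other low oxygen genes are given as a description. The interaction of genotype and experiment 3 passed an adjusted p of 0.05 in 0 of 22746 probe sets, 0%, by limma, with 437 at an unadjusted p under 0.05. For HRA1 the interaction, bzr1-1D minus det2, was -0.75 ± 0.39 (SE), and for AT3G27220 it was -1.26 ± 0.56 (SE). As a signed value the difference was higher in det2 for 19 of the 20 low oxygen genes and for 0 of the 10 root hair genes, against 52.4% of all probe sets. It was higher in det2 for 24 of the 69 plastid-encoded genes, so that most of these genes had the more negative value in det2, with medians of -0.24 in bzr1-1D and -0.41 in det2. With 1 array per genotype in experiment 3 the fit rests on the spread between experiments 1 and 2, and a missed threshold does not show that the genotypes were alike. Across probe sets the differences of the 2 genotypes had a correlation of 0.373, and of 0.445 over the 15501 probe sets with a mean intensity of at least 100, a description in which each point shares its arrays.

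Experiments 1 and 2 also differed from each other. Experiment 2 minus experiment 1 passed an adjusted p of 0.05 in 0 of 22746 probe sets, 0%, by limma, with 2574 at an unadjusted p under 0.05 and a smallest adjusted p of 0.166. Over all probe sets the SD of these differences was 0.429, against 0.358 for experiment 3 minus experiments 1 and 2. The latter averages over more arrays, which by itself lowers an SD, so these 2 values do not rank the differences between weeks. The fit of experiment 2 minus experiment 1 also took the experiment as a factor, unlike that of experiment 3. Their counts at an unadjusted p are therefore not alike. The low oxygen list had a median of -0.39 in experiment 2 minus experiment 1, and of 2.73 in experiment 3 minus experiments 1 and 2. Experiment 3 was chosen for HRA1 of this list, so these 2 medians do not rank the differences between weeks. For plastid-encoded genes the median of experiment 2 minus experiment 1 was -0.38, beside the -0.34 found for experiment 3. For heat shock genes the median of experiment 2 minus experiment 1 was -2.03.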

How the data were processed

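RNA of whole seedlings was hybridised to 1-colour Affymetrix ATH1 arrays. Per the labels, the authors obtained each deposited intensity from the array image with GCOS 1.1 at a target intensity of 500. Per the labels they went on to GeneSpring 7.0 and ratios to the wild type, while the deposited values used here are the intensities before that step. No array was rescaled here. Control probe sets, 64 in number, were dropped, and the remaining 22746 entered every fit, dim ones included.

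The annotation used gave 1 gene for 13513 probe sets, several for 503 and no gene for 8730, and 13436 were matched to a locus of the TAIR10.1 gene table, used for names alone. Intensities were raised by 50, log2-transformed and fitted with limma 3.58.1 in R 4.3.3 (lmFit, eBayes, two-sided, Benjamini-Hochberg over all probe sets), with the genotype as a block, and the script was tested on simulated data. The interaction of genotype with experiment 3 and the difference of experiments 1 and 2 were fitted likewise, the latter with the experiment as a factor. The number of arrays limits the precision.

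The arrays of experiment 3, the lists and the tests were chosen with earlier results of these data known. Lists held genes by locus (24 lists, 431 genes, 78 measured), 6 more such lists were added after the leading genes had been seen, and 16 families were taken by symbol and trimmed after their matches were seen. They covered fermentation, heat, oxidative stress, sugar, iron, photosynthesis, hormones, defence, cell division and cell wall. Markers of root hairs, photosynthetic shoot, dividing cells and seed reserves were among them. Nitrate and phosphate lists had 0 measured genes, and a list of fewer than 3 was not summarised. A promoter motif search was planned and not run for want of promoter sequence.

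Named genes were the 15 on each side with the largest difference among single-gene probe sets past an adjusted p of 0.05, above or below both other experiments in each genotype and averaging at least 100 in the higher set. Sides short of 15 were filled with genes of unadjusted p under 0.01, as values only: 92 higher and 39 lower genes met this wider rule. Of each list with 3 or more measured genes, up to 5 with the largest difference could be named. Further genes of the low oxygen, low sugar, root hair and plastid lists and ETFQO, GI and BZIP60 were named after their values were seen. Alternatives were other offsets, scaling, filters, blocks and left-out arrays.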

Additional observations from a re-analysis of the deposited data

Results flagged for a closer look

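The 4 arrays of experiments 1 and 2 were examined for an array far from the other 3, over 189 genes and 34 list medians. They hold 2 genotypes, so a genotype difference can enter. Of 223 such groups of 4 values, 19 had a gap past Dixon's critical value for 4 values, where chance flags about 1 in 20. The array apart was det2 of experiment 2 in 12, bzr1-1D of experiment 2 in 6 and det2 of experiment 1 in 1.

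Among genes above in experiment 3, AT4G24110 was low in det2 of experiment 2, at 56.2, and AT4G10270 was low in det2 of experiment 1, at 218.6. Among genes below in experiment 3, det2 of experiment 2 was the low array for AT1G43910 at 845.1, AT4G20830 at 582.9 and UGT87A2 at 366.3. XTH18, which was not below by the rule, was also low in that array, at 377.5 against 499.2 in det2 of experiment 3. In the same array PYE was high at 904.5, PDF1.2b at 2568.4, GSTU18 at 894.3 and XTH26 at 100.3. The det2 array of experiment 3, outside this comparison, was at a like level for PYE (927.0), GSTU18 (866.9) and XTH26 (103.5). For PDF1.2b it had 1100.0, between det2 of experiment 2 and the remaining arrays. The list medians of det2 of experiment 2, as deviations from the 6-array mean on the log2 scale, were 0.779 for iron, 3.09 for jasmonate and wounding and -0.344 for cold, drought and abscisic acid. In det2 of experiment 3 the iron median was higher still. Its medians for the other lists named had the same signs but were smaller in size.

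In bzr1-1D of experiment 2, AT1G26390 was high at 1356.1, AT1G14550 at 2248.5, AT5G06730 at 501.9, CYP71B6 at 4651.3 and CML41 at 555.2, and HTB11 was low at 444.3. The part of these 2 arrays in the lower side of experiment 3 was not tested beyond the values given above.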

How the results depend on the processing

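The count of 4 called probe sets was 23 with no genotype block, 25 among the 15501 with a mean intensity of at least 100 (fewer were tested), 5 with trend and robust eBayes, and 0 with no offset and a floor of 1, in bzr1-1D arrays alone and in det2 arrays alone (fewer arrays). It ran from 0 to 0 with 1 array or 1 experiment left out. As for pairing, the replicate block gave 4 as a random effect (correlation 0.0337) and 0 as a fixed effect, where experiment 3 has no spread between weeks of its own. The median difference of the low oxygen list was 2.95 with an offset of 16, 3.09 with no offset and 2.42 in bzr1-1D alone and 2.46 without experiment 2, and ran from 2.42 to 2.94 with arrays left out. That of the low sugar and dark list was 0.215 in bzr1-1D alone and 1.17 in det2 alone, and ran from 0.215 to 1.17. All 30 leading genes kept their direction in all 20 alternatives that held them. They had been chosen with experiment 3 past both other experiments in each genotype. That choice fixed their direction in advance wherever arrays or experiments were left out or 1 genotype was taken alone, so it is no sign of robustness there.

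Signs turned for 9 of 189 genes followed. In bzr1-1D alone they were -0.0517 for HSA32, -0.0849 for MCCA, 0.133 for EXPA8, 0.38 for EXPA15, -0.00859 for PDF2.5 and 0.208 for CSLA03. In det2 alone they were 0.145 for AT5G64120, 0.0623 for JAL23 and -0.25 for SWEET16. With arrays left out they ran from -0.0517 to 0.615, -0.0849 to 1.4, -0.692 to 0.133, -0.759 to 0.38, -0.00859 to 0.739, -1.32 to 0.208, -2.39 to 0.145, -0.82 to 0.0623 and -0.25 to 1.59 in that order. List medians turned for gibberellin (-0.0523 in bzr1-1D alone, from -0.0523 to 0.354), ribosomal proteins (-0.0677 in det2 alone, from -0.0677 to 0.261), cytochrome P450 enzymes (0.0709 in det2 alone, 0.0162 without experiment 2, from -0.142 to 0.0709) and oxidative stress (0.259 without experiment 1). The cause was not tested. The interaction and the difference of experiments 1 and 2 stayed at 0 calls in each of 4 alternatives. The promoter motif search was not run.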
